A study of Mus musculus with 9 samples.

Results

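The annexins are a family of proteins that bind phospholipid membranes when calcium is present. The results below cover the 10 annexin genes Anxa1 to Anxa9 and Anxa11, out of 19938 genes tested, in mouse embryonic stem cells with and without β-catenin. The genes were chosen by family name from the array's features that carry a single gene symbol. Where a gene had several such features, the feature was selected on its mean signal over the 9 arrays, the highest being kept, which applied to Anxa6 alone. The set was put together with earlier results of these data known, among them the large difference of Anxa1, so the values of Anxa1 are given as a description with no test. Of the 12 annexin genes named on the array, Anxa10 and Anxa13 lie outside the set and are described at its end.

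The 3 cell groups, with 3 arrays each, were all on a mixed S129S6-C57BL/6 background and were all grown on gelatin with 15% serum and 1000 U/ml of leukaemia inhibitory factor. The control group, called flox here, lacked 1 β-catenin allele and kept the other in floxed form. In the null group both alleles were deleted, so every group carried at least 1 deleted allele. The null Eα group was the null genotype with a stable construct that fuses E-cadherin to α-catenin, which gives cells a cadherin link to the actin cytoskeleton that needs no β-catenin. The labels call the arrays biological replicates but do not say whether they came from separate clones or from cultures of 1 line, so p-values measure the spread between these arrays, which may be technical, and line and genotype cannot be told apart. Values are log2 RMA signals, in which 1 unit is a 2-fold difference, and the signal of one gene's feature cannot be set against another's.

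An annexin consists of a conserved core, which holds the calcium and phospholipid sites, and a variable N-terminal tail that sets its partners. Members take part in membrane repair, vesicle traffic, and the linking of membranes to actin, and some have roles outside the cell. Anxa1 and Anxa2 pair with small calcium-binding S100 proteins, and Anxa5 is widely used as a probe for phosphatidylserine on dying cells.

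The bases just before the transcription start are shown for 4 members whose signals moved, because 3 of them rose together in null cells and the fourth fell. They come from RefSeq (GRCm38.p6), and 8 of the 10 members had an entry, with 11 start sites. Each run is the 250 bases before the start on the gene's strand. Capitals mark a match to 1 of the motifs searched.
Anxa1 (chr19:20390672-20390921, minus strand): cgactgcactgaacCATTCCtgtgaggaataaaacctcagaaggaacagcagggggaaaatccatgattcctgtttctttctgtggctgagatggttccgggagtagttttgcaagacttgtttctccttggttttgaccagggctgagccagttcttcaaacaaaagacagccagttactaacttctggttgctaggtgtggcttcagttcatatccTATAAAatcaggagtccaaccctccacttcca
Anxa2 (chr9:69453433-69453682, plus strand): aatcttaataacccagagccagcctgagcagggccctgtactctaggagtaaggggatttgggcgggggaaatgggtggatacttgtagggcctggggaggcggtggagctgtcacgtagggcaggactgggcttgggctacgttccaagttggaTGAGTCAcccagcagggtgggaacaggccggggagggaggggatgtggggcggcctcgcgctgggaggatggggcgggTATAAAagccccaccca
Anxa5 (chr3:36475888-36476137, minus strand): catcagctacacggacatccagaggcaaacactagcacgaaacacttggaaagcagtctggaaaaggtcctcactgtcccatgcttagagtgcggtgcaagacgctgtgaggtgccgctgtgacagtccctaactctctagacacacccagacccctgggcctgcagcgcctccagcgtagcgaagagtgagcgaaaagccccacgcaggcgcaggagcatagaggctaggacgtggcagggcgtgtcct
Anxa11 (chr14:25841905-25842154, plus strand): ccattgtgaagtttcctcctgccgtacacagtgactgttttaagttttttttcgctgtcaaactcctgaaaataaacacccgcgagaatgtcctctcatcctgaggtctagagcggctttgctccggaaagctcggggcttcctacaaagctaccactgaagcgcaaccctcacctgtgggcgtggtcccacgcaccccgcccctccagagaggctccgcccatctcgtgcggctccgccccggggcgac

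The motifs were CTTTGAT for TCF/LEF factors, through which β-catenin acts on genes, TGANTCA for AP-1 and GGAATG for TEAD factors, each on both strands. TATAAA, the TATA box, was searched on the gene's strand and was added after the sequences were seen. CTTTGAT was in 0 of the members' 11 windows and in 3.21% of all 32851 promoter windows of the same length. Anxa1 held CATTCC, the TEAD motif read on the other strand, 236 to 231 bases before the start. In all, 12.6% of windows hold that motif on either strand. Anxa2 held TGAGTCA (95 to 89 bases before the start), a match found in 6.75% of windows. Anxa1 and Anxa2 each held TATAAA, 32 and 17 bases before the start, as did 7.59% of windows. The upstream bases were 46.0% G and C in Anxa1, with 2 CpG pairs. They were 62.4% in Anxa2, 58.8% in Anxa5 with 13 CpG pairs and 58.0% in Anxa11 with 17, where the median of all windows was 52.4% with 6 CpG pairs. These matches describe the letters only.

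Before the annexins, the arrays were checked against their labels. Ctnnb1, the targeted gene, gave 11.13, 11.13 and 11.21 on the flox arrays, 10.55, 10.50 and 10.47 on the null arrays and 10.23, 10.13 and 10.32 on the null Eα arrays, with no overlap between groups. Probes outside the deleted part do not check the deletion, and where this feature's probes lie was not examined here. Of 10 embryonic stem cell markers, 0 lay under the features' lower quartile in any group. All 10 were called lower in null than in flox cells, where 28.7% of all genes were. Esrrb (5.04) and Zfp42 (5.34) lay under the median in null cells. Whether these dim signals stood above background was not measured. Array correlations were 0.986 to 0.997 within groups. Null Eα replicate 3 lay nearer to the null arrays (r = 0.978 to 0.980) than null Eα replicates 1 and 2 did (0.964 to 0.970). Calls of single annexin members are therefore also given without it where they change. Counts of the other gene lists are given with all arrays only.

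Leaving out Anxa1, which is described without a test, 5 of the 9 tested annexins rose in null cells and 1 fell. Anxa2, Anxa3 and Anxa5 rose by at least 2-fold, and Anxa11, the gene that fell, did so by at least 2-fold. In null Eα cells Anxa2, Anxa3 and Anxa5 were at least 2-fold above flox as well, and each lay below its null level. Anxa1, untested, lay on the same sides. Calls are limma's at an adjusted p under 0.05, with Benjamini-Hochberg adjustment over the 19938 genes. Of all genes tested, 26.5% were called higher in null than in flox cells and 28.7% lower, while 5.03% were called higher by at least 2-fold and 10.2% lower by at least 2-fold. In bulk samples, a change in the number of cells of a type and a change in RNA per cell cannot be told apart. The median difference was 0.27 log2 units over the 9 tested members, 0.48 with Anxa1 and 0.06 over all genes.

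**Figure D1:**
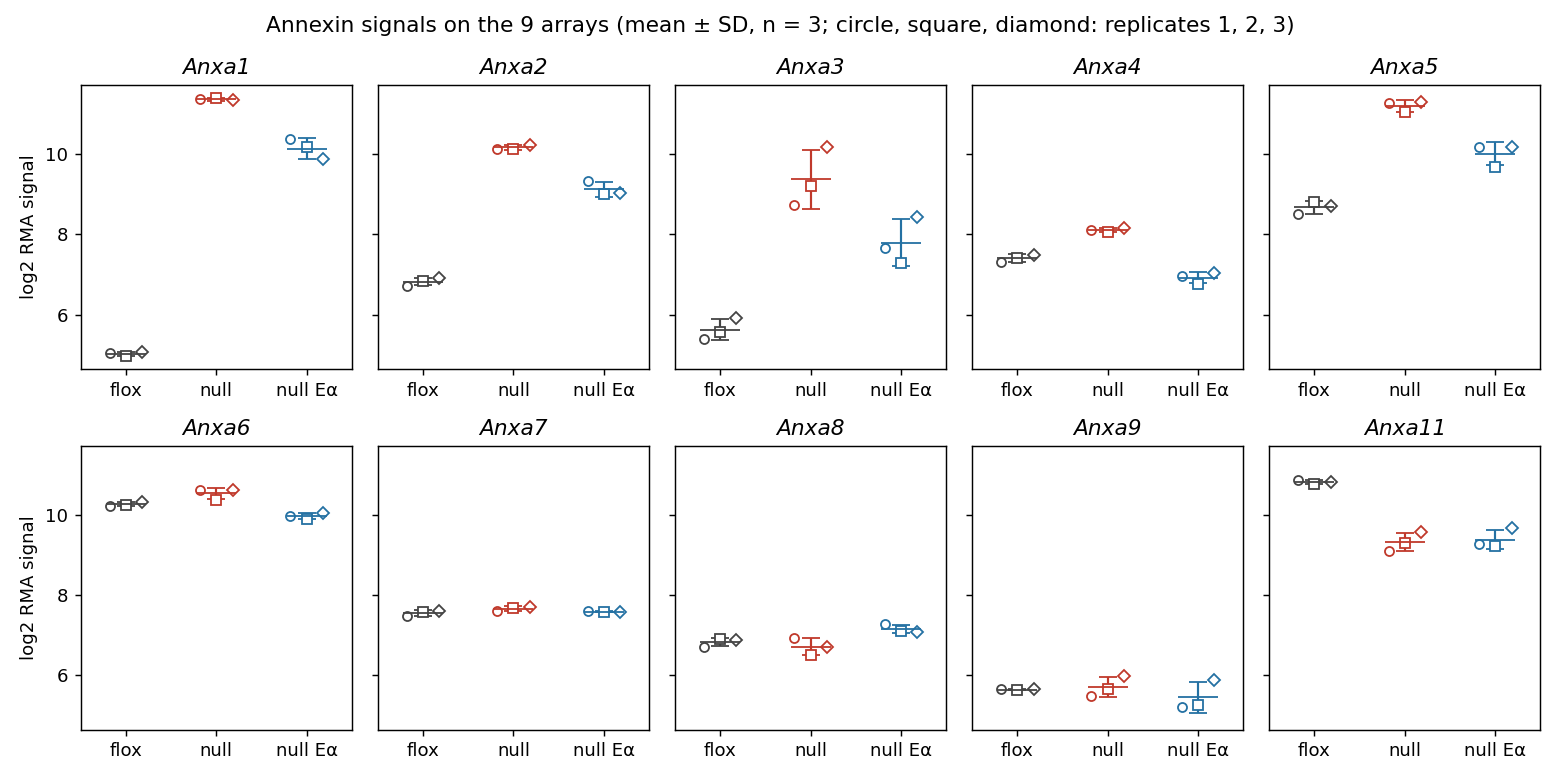
Log2 RMA signal (y axis) of each annexin on the 9 arrays, by group (x axis). Symbols are single arrays, bars the mean ± SD of 3 arrays. Anxa1, Anxa2, Anxa3 and Anxa5 lie lowest on the flox arrays and highest on the null arrays, Anxa4 and Anxa6 lie lowest in null Eα cells, and Anxa11 is low in both lines without β-catenin.

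Anxa1, a phospholipase-inhibiting protein whose tail is a ligand of formyl peptide receptors, had the widest spread of signal in the family. It gave 5.04, 4.97 and 5.07 on the flox arrays, 11.35, 11.39 and 11.33 on the null arrays, and 10.37, 10.16 and 9.86 on the null Eα arrays. No group overlapped another, and the null arrays had an SD of 0.03 around their mean of 11.36. The null mean lay 6.34 ± 0.11 log2 units (limma standard error) above flox, an 80.8-fold difference. The null Eα mean lay 5.11 ± 0.11 above flox, or 34.5-fold, and 1.23 ± 0.11 below null. The flox mean of 5.02 was under the median of all features on those arrays (5.95 to 5.96), and whether it stood above background was not measured, so the folds against flox may be too small. These values carry no test, because Anxa1 was known for its difference when the genes were chosen.

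Anxa2 makes a complex with S100a10 that joins membranes to actin and binds plasminogen activator at the cell surface. Its signals were 6.72, 6.82 and 6.90 on the flox arrays, 10.12, 10.13 and 10.22 on the null arrays, and 9.32, 8.996 and 9.03 on the null Eα arrays. The groups were again fully apart. Anxa2 rose by 3.35 ± 0.10 in null cells (10.2-fold, limma adjusted p = 2.82e-09), and it stood 2.30 ± 0.10 above flox in null Eα cells (4.93-fold, adjusted p = 6.61e-08). Between the lines without β-catenin it was lower with the fusion, by 2.06-fold (difference -1.04 ± 0.10, adjusted p = 4.33e-05). The reference gene table also lists an Anxa2 pseudogene, Gm41080, and whether its RNA binds the same feature was not tested.

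Anxa5, the phosphatidylserine-binding annexin, gave 8.50, 8.81 and 8.71 on the flox arrays, 11.27, 11.03 and 11.28 on the null arrays, and 10.18, 9.67 and 10.17 on the null Eα arrays. It rose by 2.52 ± 0.14 in null cells (5.75-fold, limma adjusted p = 2.10e-07). In null Eα cells it was 2.52-fold above flox (1.34 ± 0.14, adjusted p = 2.60e-05) and 2.28-fold below null (-1.19 ± 0.14, adjusted p = 2.23e-04). Every null Eα array lay above every flox array and below every null array.

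Anxa3, known from neutrophil granules, was the most variable of the rising members. Its signals were 5.38, 5.57 and 5.90 on the flox arrays, 8.73, 9.19 and 10.18 on the null arrays, and 7.66, 7.28 and 8.43 on the null Eα arrays. The third replicate was the highest of its group in all 3 groups, and its SD was 0.26 in flox, 0.74 in null and 0.59 in null Eα cells. Relative to flox, Anxa3 rose by 3.75 ± 0.36 in null cells (13.4-fold, limma adjusted p = 9.04e-06). The null Eα rise was 2.17 ± 0.36 (4.51-fold, adjusted p = 5.15e-04). It was lower in null Eα than in null cells by 2.98-fold (-1.57 ± 0.36, adjusted p = 0.00837), with the closest pair of arrays at 8.43 and 8.73. Its flox mean of 5.62 was also under the median of all features.

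Anxa4 and Anxa6 moved to opposite sides of the flox level. Anxa4, an annexin of epithelial membranes, gave 7.30, 7.42 and 7.49 on the flox arrays, 8.11, 8.05 and 8.17 on the null arrays, and 6.96, 6.77 and 7.03 on the null Eα arrays. All null arrays lay above and all null Eα arrays below every flox array. The rise in null cells was 0.70 ± 0.09 (1.63-fold, limma adjusted p = 6.40e-05), and in null Eα cells Anxa4 fell by 0.48 (SE 0.09, adjusted p = 9.45e-04). The lines without β-catenin differed by -1.19 ± 0.09 (2.28-fold, adjusted p = 1.08e-05).

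Anxa6, whose core holds a duplicated set of repeats, showed the same order with smaller steps. Its signals were 10.22, 10.25 and 10.32 on the flox arrays, 10.60, 10.36 and 10.62 on the null arrays, and 9.97, 9.89 and 10.04 on the null Eα arrays. It was 0.27 ± 0.09 higher in null cells (limma adjusted p = 0.0240), 0.29 lower in null Eα cells than in flox cells (difference -0.29 ± 0.09, adjusted p = 0.0133) and 1.48-fold lower than in null cells (-0.56 ± 0.09, adjusted p = 8.99e-04). Both calls against flox were fragile. The null call was lost without flox replicate 1 (0.24), flox replicate 2 (0.26), null replicate 1 (0.23) or null replicate 3 (0.22). For null Eα, the call against flox was lost with quantile-normalized arrays (-0.04), with each chromosome centred (-0.17) and when the gene's other feature was averaged in (-0.02). That other feature read 5.42 to 5.69 on the flox arrays, 5.70 on every null array and 5.70 to 5.91 on the null Eα arrays.

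Anxa11 was the only member that fell in both lines without β-catenin. It has a long N-terminal tail, binds the calcium sensor ALG-2 (Pdcd6) and S100a6, and takes part in cell division and in the transport of RNA granules. Its signals were 10.87, 10.75 and 10.80 on the flox arrays, 9.10, 9.28 and 9.56 on the null arrays, and 9.26, 9.22 and 9.66 on the null Eα arrays. Every array without β-catenin lay more than 1 unit below every flox array, and the null and null Eα arrays overlapped. The null difference from flox was -1.49 ± 0.14 (2.82-fold lower, limma adjusted p = 6.41e-06). The null Eα difference was -1.43 ± 0.14 (2.70-fold lower, adjusted p = 1.13e-05). Null Eα differed from null by 0.06 ± 0.14 (adjusted p = 0.752), with a 95% interval from -0.25 to 0.37.

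Anxa7, Anxa8 and Anxa9 differed from flox by 0.32 log2 units or less in both lines. Anxa7, also called synexin, is the other annexin with a long tail and binds sorcin and ALG-2. It ranged from 7.47 to 7.70 over the 9 arrays and was called in none of the comparisons (limma adjusted p = 0.200, 0.701 and 0.405). The 95% interval of its difference from flox ran from -0.04 to 0.26 in null cells and from -0.12 to 0.19 in null Eα cells. After quantile normalization it was called higher than flox in both lines, by 0.28 each.

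Anxa8, an annexin with anticoagulant activity found in epithelia, gave 6.72, 6.90 and 6.89 on the flox arrays, 6.94, 6.51 and 6.70 on the null arrays, and 7.28, 7.11 and 7.08 on the null Eα arrays. The null Eα arrays lay above all others. The difference was -0.12 ± 0.11 in null cells (limma adjusted p = 0.379) and 0.32 ± 0.11 in null Eα cells against flox (adjusted p = 0.0291), with 0.45 ± 0.11 against null (adjusted p = 0.0135). The call against flox was lost without flox replicate 1 (0.26), flox replicate 3 (0.35) or null Eα replicate 1 (0.26), and when arrays (0.24) or chromosomes (0.27) were centred. The call against null was lost without null Eα replicate 1 (0.39, adjusted p = 0.0524, with 0.00424 to 0.0524 over all alternatives).

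Anxa9, an atypical member whose calcium sites have diverged, gave 5.65, 5.62 and 5.65 on the flox arrays, 5.49, 5.65 and 5.99 on the null arrays, and 5.21, 5.25 and 5.88 on the null Eα arrays. In each line without β-catenin the third replicate was the highest. It was called in none of the comparisons (limma adjusted p = 0.760, 0.354 and 0.283), and its means lay under the median of all features in every group. Without null Eα replicate 3 it was called lower in null Eα cells, with differences of -0.41 from flox and -0.48 from null (adjusted p = 0.0173 and 0.0146, against 0.0173 to 0.751 and 0.0146 to 0.660 over all alternatives).

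Against flox, 4 of the 9 tested members were called higher and 3 lower in null Eα cells, where 32.1% of all genes were called higher and 31.6% lower. By at least 2-fold, 3 tested members were higher beside 2.22% of all genes, and 1 (Anxa11) was lower beside 9.75%. The median was 0.03 over the tested members, 0.18 with Anxa1 and 0.07 over all genes. With each array centred on its median, 40.1% of all calls in this comparison were rises, in place of 50.4%, while the tested members' counts were 3 and 3.

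Between null Eα and null cells, 5 of the 9 tested members were called lower and 1, Anxa8, higher. Of all genes 18.1% were called lower and 13.6% higher. Anxa2, Anxa3, Anxa4 and Anxa5 were lower by at least 2-fold, 4 tested members beside 3.13% of all genes, and 0 were higher by that much beside 1.70%. The median was -0.56 over the tested members, -0.80 with Anxa1 and 0.05 over all genes. Since these comparisons share arrays in pairs, they are not independent of each other. Without null Eα replicate 3, a further member, Anxa9, was called lower, for 6 in all. Without null Eα replicate 1, 0 tested members were called higher by limma.

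**Figure D2:**
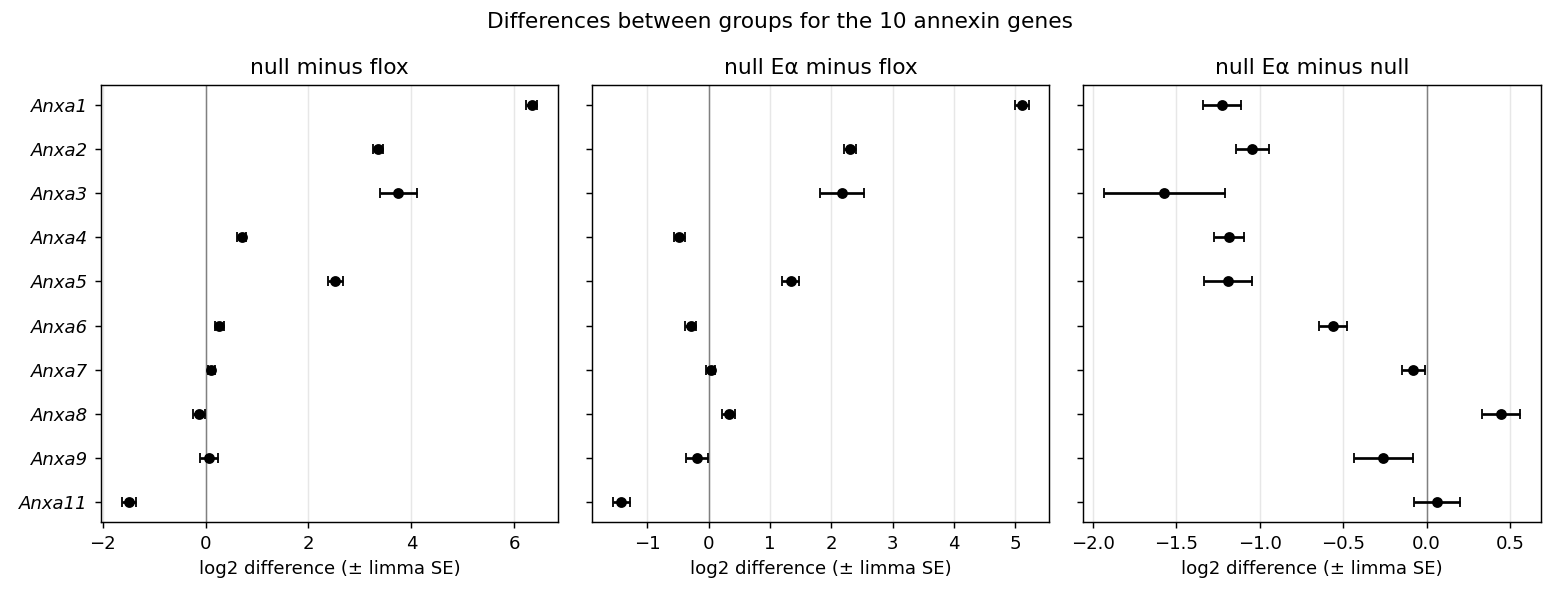
Log2 difference (x axis) of the 10 annexins in the 3 comparisons, with limma's standard error as bars (n = 3 arrays per group). In null minus flox cells Anxa1, Anxa3, Anxa2 and Anxa5 lie between 2.52 and 6.34, and in null Eα minus null cells the same genes lie between -1.57 and -1.04.

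Across the 19 refits with other settings or 1 array left out, Anxa2, Anxa3, Anxa4, Anxa5 and Anxa11 kept their call or lack of call in all 3 comparisons. Their called differences kept their direction. The uncalled difference of Anxa11 between null Eα and null cells did not, running from -0.08 to 0.19. Anxa1 stayed between 6.24 and 6.37 in null against flox cells. For Anxa3, the difference between null Eα and null cells ran from -1.89 to -1.17, reached at the lower size without null replicate 3.

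**Figure D3:**
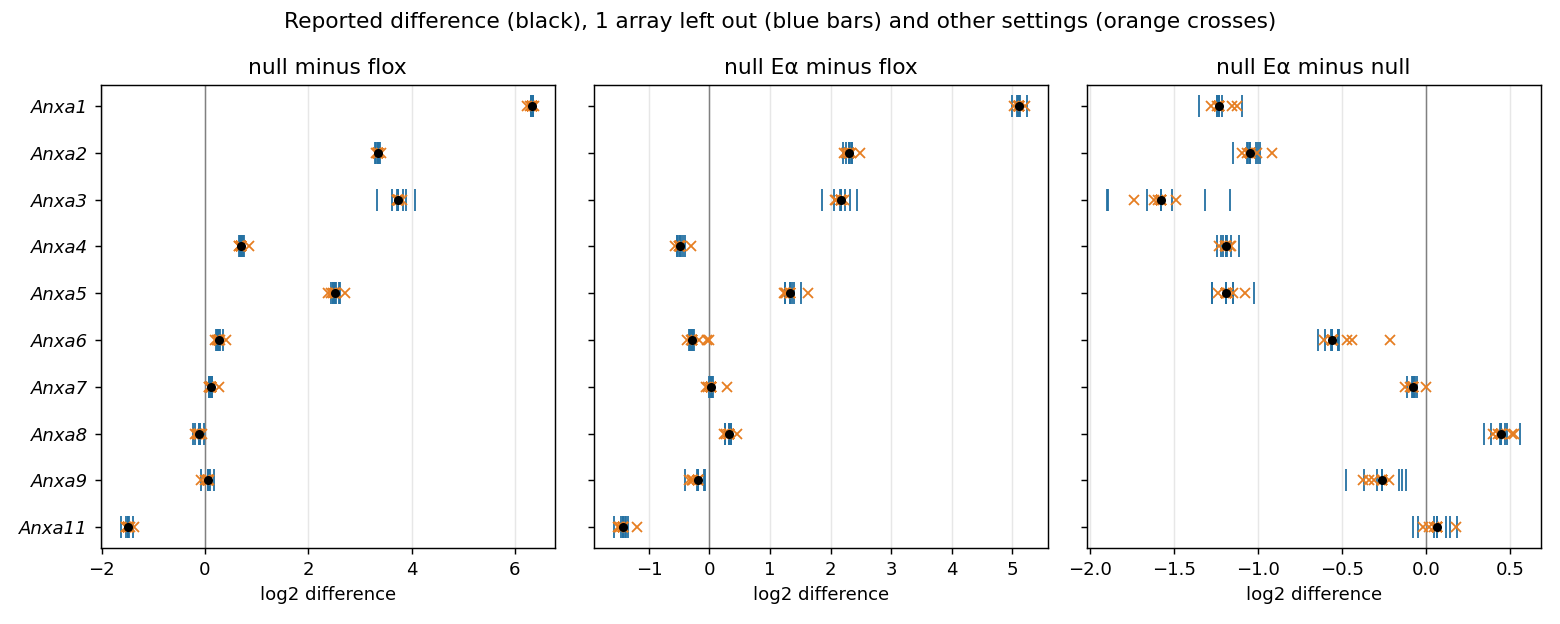
Log2 difference (x axis) of each annexin as reported (black dots), with 1 array left out (blue bars) and under the other settings (orange crosses). The null against flox values of Anxa1, Anxa2 and Anxa5 stay close to the reported ones, whereas the crosses of Anxa6 reach -0.02 in null Eα minus flox cells.

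The 2 annexin genes outside the set gave low signals. Anxa10, a divergent annexin of gastric epithelium, lay at 4.12, 4.15 and 4.13 on average in flox, null and null Eα cells, below the lower quartile of all features in each group, and was called in no comparison. Anxa13, an annexin of intestinal epithelium, had means of 4.36, 4.72 and 5.05. It was called higher in null (0.36, limma adjusted p = 0.0245) and in null Eα cells (0.69, adjusted p = 6.29e-04). The null call was lost after quantile normalization (0.21), without flox replicate 3 (0.23) and without null replicate 2 (0.29), and filtering out dim genes removed the gene.

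Genes of annexin partners and ligand pathways were described next. Of 10 measured partners and receptors, 7 rose and 0 fell in null cells, with a median of 1.67, and in null Eα cells 7 rose and 2 fell, with a median of 0.91. Of all genes, 26.5% rose and 28.7% fell in null cells, and 32.1% and 31.6% did in null Eα cells. Fpr1 and Fpr2, the receptors of Anxa1, were not analysed here. S100a6, which binds Anxa11 and other annexins, rose most (null 2.75, null Eα 2.13 above flox). Pla2g4a, the cytosolic phospholipase A2 that Anxa1 inhibits, rose by 2.07 and 2.05. Ahnak, a scaffold of the Anxa2 complex, rose by 2.05 and 1.13. S100a10, the partner of Anxa2 that was picked for its role and not by size, rose in both lines (null 1.62, null Eα 0.77). Null Eα differed from null by -0.85 (limma adjusted p = 0.00361). S100a11, the partner of Anxa1, also picked for its role, was 0.59 above flox in null cells and -0.34 from flox in null Eα cells. The array held 2 features for S100a11, and these values are of the brighter feature alone. Whether the other feature moved the same way, and which gene copy the brighter feature reads, was not examined here. Pdcd6 (ALG-2), which binds Anxa7 and Anxa11, was not called in either line (null 0.14, null Eα 0.02 from flox). Sri (sorcin), a partner of Anxa7, differed by 0.08 in null cells (adjusted p = 0.422) and by -0.81 in null Eα cells (limma adjusted p = 1.39e-05). In all, 6 partners, S100a10 and S100a11 among them, were lower in null Eα than in null cells, and 1, Plg, was higher. Of the 6, S100a6 was at the threshold (limma adjusted p = 0.0499) and its arrays overlapped. Plg was dim, with a flox mean of 4.28 under the features' lower quartile and its other means under the median. In that comparison 18.1% of all genes were called lower and 13.6% higher.

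Of 18 genes of plasma membrane repair, a process in which several annexins seal torn membrane, 10 rose and 5 fell in null cells, with a median of 0.34. In null Eα cells 11 rose and 6 fell, with a median of 0.42. The falls, 5 and 6 of 18, stood beside 28.7% and 31.6% of all genes, and the rises beside 26.5% and 32.1%. Cav1, which encodes caveolin 1, rose by 3.53 and 3.35, from a flox mean of 4.36 that lay under the lower quartile of the features. Capn2, a large calpain subunit, rose by 2.88 and 1.67, and Myof, the membrane-fusion protein myoferlin, by 2.77 and 1.45. Between null Eα and null cells 6 repair genes were lower and 1 higher, beside 18.1% and 13.6% of all genes.

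Other proteins that bind or move phospholipids were counted in the same way. Of 8 copines, calcium-dependent phospholipid-binding proteins of another family, 1 rose and 2 fell in null cells, with a median of 0.10. Cpne5 fell by 1.68 and Cpne9 by 1.29, and Cpne8 rose by 1.08. Of 11 scramblases and flippases, which set on which side of the membrane phosphatidylserine lies, 1 rose and 7 fell in null cells, with a median of -0.38. Among them Atp11a, a flippase, fell by 1.24, Xkr8, a scramblase of dying cells, by 1.03 and Plscr1 by 0.78. In null Eα cells 2 rose and 7 fell. Beside these counts, 26.5% and 28.7% of all genes were called higher and lower in null cells, and 32.1% and 31.6% in null Eα cells.

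**Figure D4:**
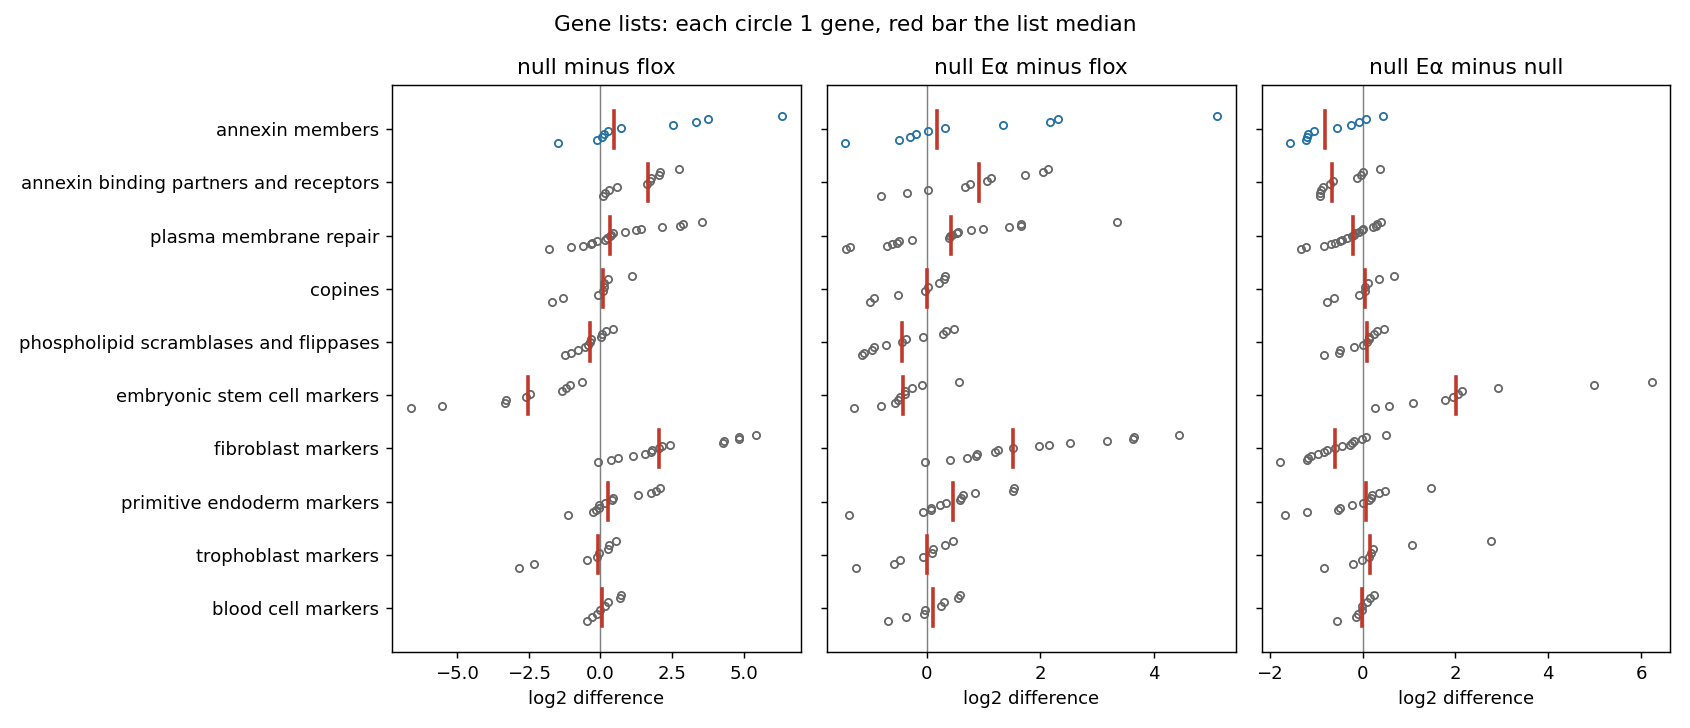
Log2 difference (x axis) of every measured gene of the annexin set (blue circles) and 9 other lists (grey circles) in the 3 comparisons. Each circle is 1 gene and red bars list medians. Annexin partners and fibroblast markers lie mostly above 0 against flox, and stem cell markers lie below 0 in null minus flox and above 0 in null Eα minus null cells.

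Markers of cell types were counted beside the shares of all genes, 26.5% higher and 28.7% lower in null cells. In null Eα cells the shares were 32.1% and 31.6%. Of 15 fibroblast markers 12 rose and 0 fell in null cells (median 2.04), and 13 rose and 0 fell in null Eα cells (median 1.51). Their linear signals summed to between 748 and 865 per flox array, 7767 and 9397 per null array and 3864 and 4876 per null Eα array. Lox, Col1a2 and Dcn rose most in null cells, by 5.41, 4.82 and 4.82. Fap was under the features' lower quartile in every group, Lum in flox and null Eα cells, and Dcn and Postn in flox cells. On the null arrays Dcn gave 8.08, 10.45 and 8.54. Meox1 was called in no comparison. The linear signals of the 10 annexins summed to 4094 to 4236, 9039 to 10415 and 4645 to 5450 on the same arrays. Without Anxa1 the sums were 4061 to 4202, 6346 to 7837 and 3501 to 4397, and those of flox and null Eα arrays overlapped. Such sums add signals of unlike features, and the brightest weigh most. In flox cells these were Anxa11 (mean 10.81) and Anxa6 (10.26). Anxa11 was below flox in null Eα cells, while Anxa2, Anxa3 and Anxa5 were above it. Overlapping sums therefore do not mean that single members lay at their flox level. The part of fibroblasts in the annexin values was not tested.

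Apart from the stem cell markers, all 10 of which were called lower in null cells, the remaining marker lists moved both ways. Of all genes, 26.5% were called higher and 28.7% lower in null cells. Stem cell markers summed to between 24170 and 24412 per flox array, 5741 and 6394 per null array and 17340 and 18418 per null Eα array. In null cells Dppa5a differed by -6.62, Esrrb by -5.54 and Fgf4 by -3.33. Comparing null Eα with null, all 10 stem cell markers were higher, beside 13.6% of all genes. Of 12 markers of primitive endoderm 6 rose and 2 fell in null cells, led by Lamb1 (2.06), Dab2 (1.92) and Pdgfra (1.75). Gata6 and Sox17, which define that tissue, differed by -0.06 and -0.05 and were not called. Of 8 trophoblast markers 2 rose and 3 fell, with Tfap2c at -2.84, Eomes at -2.32 and Krt7 at 0.54. Of 8 genes listed as blood cell markers 2 rose and 1 fell, with Kdr at 0.71, Csf1r at 0.69 and Itgam at -0.47. Kdr and Csf1r lay under the median of the features in every group, and how specific Kdr is to blood cells was not tested. Itgam, Lyz2 and Ptprc, the general marker of blood cells, were under the features' lower quartile in every group. The rises in the trophoblast and blood lists were near the share of all genes called higher. The part of these cell types in the annexin values was likewise not tested.

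The genes whose signals ran most like those of the 3 widest-ranging annexins were named by Pearson's r over the 9 arrays, among 1282 other genes with a range of at least 2 log2 units. The arrays fall into 3 groups, so a high r can come from group means alone. For Anxa1 they were Lox, which crosslinks collagen (r = 0.999), the growth factor gene Csf1 (0.999) and Acta2, smooth muscle actin (0.997). For Anxa2 they were the actin-severing protein gene Gsn (0.998), the protease gene Mmp14 (0.996) and Col12a1, a collagen (0.996). For Anxa3 they were Samd4 (0.989), Syne2, of the nuclear envelope (0.988) and Arap2 (0.986). By Spearman's rho other genes led, among them Cdh11 and Thbs2 for Anxa1, Camk2d, Jun and Klf6 for Anxa3 and Micos10 for Anxa2, each at 1.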

How the data were processed

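The deposited table holds log2 values that the authors computed by RMA, per the submitters' processing notes, which give no version, 1 per transcript cluster and array, from total RNA labelled for an Affymetrix whole-transcript array. The whole-transcript labelling is named in the labels' protocols. Whether the 9 arrays were normalized together is not given in the sources used here. RMA log2 values compress differences of dim features, and detection calls were not used here. Values were used as deposited, and the number of arrays limits the precision.

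Of 35556 features, 21789 had 1 gene symbol in the platform annotation, 1621 several and 12146 were not listed. One feature per gene, that with the highest mean, gave 19938 genes. Groups were compared with limma 3.58.1 in R 4.3.3 (lmFit, eBayes, all 9 arrays, 6 residual and 4.04 prior degrees of freedom), with Benjamini-Hochberg adjustment and a threshold of 0.05. The script was tested on simulated data. Errors after ± are limma standard errors unless SD is named.

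The members and the 10 gene lists, with 101 of 105 genes measured, were chosen with earlier results of these data known. All members are named, as are at most 3 genes of each list, those with the largest null minus flox difference. S100a10, S100a11, Pdcd6, Sri, Gata6, Sox17, Ptprc, Fap, Lum, Meox1, Plg, Anxa10, Anxa13 and Ctnnb1 were named for their role or as single calls. Capn1 and Capns1 were named beside Capn2 because they moved the other way. Postn, Lyz2 and Zfp42 were named as dim features. Replicate numbers recur across groups, but the labels give no pairing, so the number was a block only in an alternative. In their deviations 3 of 9 same-numbered pairs correlated over 0.1. Such pairs ran from -0.03 to 0.26, and pairs of other numbers from -0.20 to 0.14. An array correlated best with its own number in 12 of 18 comparisons with another group. Alternatives changed the normalization, the filter, the feature, the prior, the arrays used and the block. Figures used matplotlib 3.10.9.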

Additional observations from a re-analysis of the deposited data

Results flagged for a closer look

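Anxa4 and Anxa6 were called above flox in null cells and below flox in null Eα cells, and the lines without β-catenin differed from each other as well (limma, n = 3 arrays per group). For Anxa4 the differences from flox were 0.70 and -0.48, and null Eα lay at -1.19 from null (adjusted p = 1.08e-05), with each null array above and each null Eα array below every flox array. For Anxa6 they were 0.27 and -0.29, with null Eα at -0.56 from null (adjusted p = 8.99e-04). The Anxa4 calls were kept under all 19 refits, and those of Anxa6 against flox were not.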

How the results depend on the processing

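Of the 30 differences (10 annexins in 3 comparisons), those of Anxa1 and those called kept their direction under the 19 refits, and of the 27 that were tested, 19 stayed on the same side of the threshold throughout. The exceptions were in Anxa6, Anxa7, Anxa8 and Anxa9. For Anxa1, untested, 1 value moved by more than its replicate spread (6.24 after quantile normalization). The counts that follow are of the 9 tested members. Called rises in null Eα against null cells fell from 1 to 0 without null Eα replicate 1. Requiring 2-fold left 3 rises and 1 fall in null against flox, 3 rises and 1 fall in null Eα against flox, and 0 rises and 4 falls in null Eα against null cells. With the replicate number as a block the rises and falls were 5 and 1, 4 and 3, and 1 and 5, as without it, and the block changed no call of a member. In 12 of 18 comparisons with another group an array correlated best with its own number. With dim genes left out, which removes Anxa9 and tests fewer genes, 2719 genes in place of 5285 were called higher in null against flox, 1918 in place of 6399 in null Eα against flox and 1785 in place of 2721 in null Eα against null. The median over all genes then moved to -0.16, -0.29 and -0.08. How far signals stood over background is unknown, which limits differences from dim levels such as those of Anxa1, Anxa3 and Anxa9 in flox cells. The cause of these changes was not tested.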
